A study of Homo sapiens with 12 samples.

Results

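Genes that build, crosslink and cut the extracellular matrix were followed in HepG2C3A cells grown in a culture device that the labels call a microsystem or in Petri dishes, with or without acetaminophen. The set was a list of 43 named genes: collagens, laminins, other matrix proteins and proteoglycans, lysyl oxidases and other crosslinking enzymes, metalloproteases and their inhibitors. Of these, 42 had a probe set that the array's annotation gives to a single gene, out of 18404 such genes, and the brightest on average stood for a gene with several. LAMA3 was not analysed here. A further 10 members (COL4A1, LAMA1, LAMB3, NID2, FBN1, EFEMP1, TNC, LTBP1, MMP7 and ADAMTS1) lay below the 40th percentile of all probe sets in every array, with log2 intensities between 2.83 and 4.67, and were not tested. The other 32 lay above it in all 12 arrays and were tested, among 13199 genes in all.

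HepG2C3A is a clonal derivative of the human hepatoma line HepG2, and acetaminophen is a pain reliever that liver cells convert in part to a reactive quinone imine. The 4 groups had 3 Affymetrix arrays each: microsystem treated, microsystem control, Petri treated and Petri control. Culture lasted 96 h, of which the treated cells spent 72 h with acetaminophen, and control cells had none. All groups are the same line, so the samples hold no other liver cells by design, and RNA was isolated after the cells had been released with trypsin. The sources used here give neither the acetaminophen dose nor the build of the microsystem, and nothing says that replicates were separate cultures, so the p-values reflect a spread that may be technical.

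The matrix around epithelial cells has a basement membrane, in which laminin and collagen IV networks are joined by nidogens and by heparan sulfate proteoglycans such as perlecan and agrin. In the stroma, fibrils of collagens and fibronectin are made stiff when lysyl oxidases oxidise lysine side chains and so let neighbouring chains bond. Metalloproteases cut these proteins, and the tissue inhibitors of metalloproteases (TIMPs) block them. In liver, excess matrix is the mark of fibrosis and is made mainly by stellate cells, while hepatocytes supply plasma fibronectin and part of the basement membrane proteins.

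The deposited values are log2 intensities, which compare arrays for a gene but not genes with each other. The array medians lay between 5.556 and 5.629, and within a group the correlation between arrays was 0.991 to 0.995. Both microsystem arrays numbered 3 stood apart from the rest on the third principal component (scores -13.9 and -17.2, against -4.97 to 11.8 elsewhere), so member calls that changed without them are given both ways. All 8 hepatocyte markers with a probe set (ALB, AFP, APOA1, APOB, TTR, TF, FGB and SERPINA1) had group means above the 40th percentile, while 0 of 5 endothelial markers did. Of 8 fibroblast or stellate cell markers 4 passed the filter, COL1A2, COL3A1, PDGFRB and DES, and 0 of these changed in any comparison. Lumican (LUM) and decorin (DCN) were under the 40th percentile in every array.

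The first question was how the matrix genes differed between the microsystem and Petri dishes. Most differences were towards lower levels in the microsystem: the crosslinking enzymes LOX and LOXL3, the heparan sulfate proteoglycans HSPG2 (perlecan) and AGRN, the collagen chaperone SERPINH1 and the protease MMP11 were lower there in both treated and control cells. SPP1 (osteopontin) and COL27A1 went the other way. In treated cells, 3 of 32 members rose and 13 fell in the microsystem relative to Petri dishes, so that 50% passed the test, against 41.4% of all 13199 genes tested (limma, two-sided, Benjamini-Hochberg adjusted p under 0.05). In control cells 2 rose and 14 fell, again 50%, against 44.9% of all genes. By direction, 22.6% of all genes rose and 18.9% fell in treated cells, and 26.5% rose and 18.3% fell in control cells. Differences of at least 1.5-fold that passed the test were found for 8 members in treated cells and 9 in control cells, against 14.8% and 16.9% of all genes. Groups did not overlap for 19 members in treated and 18 in control cells, against 52.9% and 52.4% of all genes. The median log2 difference of the 32 members was -0.17 in treated and -0.26 in control cells, against 0.00 and 0.01 over all genes. These contrasts share no array, but they share the estimate of each gene's spread, and their overlap was not counted over all genes. Of the members that fell, 10 were the same in both, which is 76.9% of the 13 in treated cells and 71.4% of the 14 in control cells. They were COL18A1, LAMB1, HSPG2, AGRN, LOX, LOXL3, SERPINH1, MMP11, MMP15 and TIMP2. In treated cells alone the test passed for falls of LAMC1, NID1 and MMP14 and the rise of TIMP1, and in control cells alone for falls of BGN, LTBP3, LOXL4 and TGM2, but none of these differed between treated and control cells by the test of that difference, given below. Because these are bulk samples of 1 line, fewer cells that express a gene and less of its RNA per cell cannot be told apart.

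**Figure D1:**
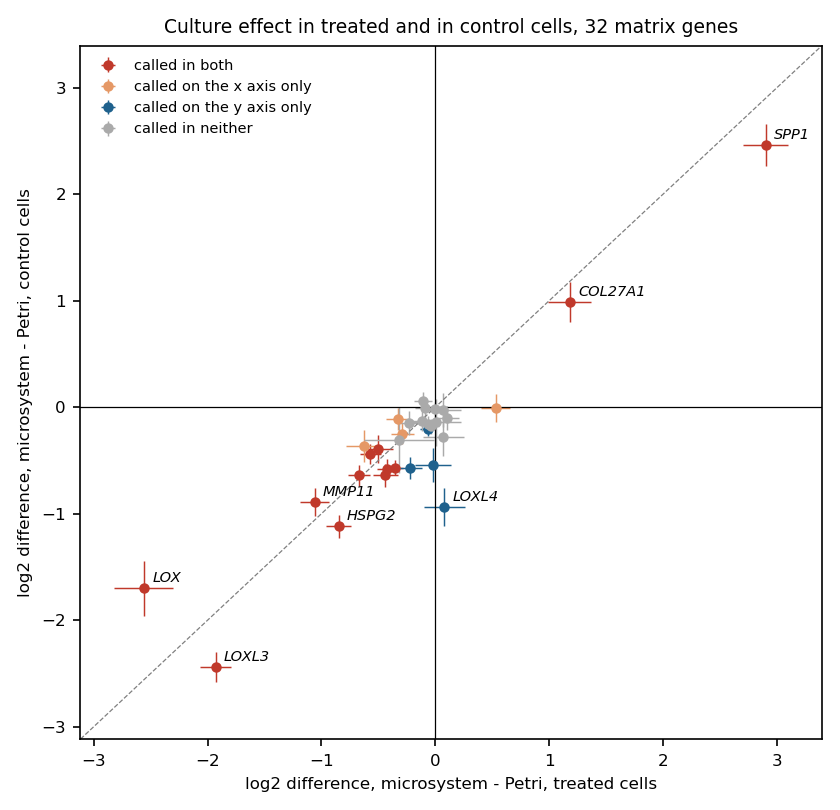
Log2 difference, microsystem minus Petri, of the 32 tested matrix genes in treated cells (x axis) and in control cells (y axis), with the standard errors of the fit and the line of equality dashed. SPP1 (2.90 and 2.46) and COL27A1 (1.18 and 0.99) lie at the upper right, LOX (-2.56 and -1.70) and LOXL3 (-1.93 and -2.44) at the lower left, and LOXL4 (0.08 and -0.94) lies off the line.

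The second question was what acetaminophen changed. In both cultures treated cells had more RNA of biglycan (BGN), of the protease inhibitors TIMP1 and TIMP2 and of the membrane protease MMP14. In the microsystem 7 of 32 members rose and 1 fell in treated cells, or 25%, against 9.06% of all genes, of which 6.39% rose and 2.67% fell. The 7 were BGN, LOXL4, TIMP1, TIMP2, HSPG2, MMP14 and TGM2, and the member that fell was LOX. In Petri dishes 5 members rose and 1 fell, or 18.8%, against 10.4% of all genes, of which 8.38% rose and 1.98% fell. The 5 were BGN, TIMP2, MMP14, TIMP1 and FBLN1, and SPP1 fell. The 2 treatment contrasts share no array, but they too share the estimate of each gene's spread. The 4 genes that rose in both make up 57.1% of the members' rises in the microsystem and 80% of those in Petri dishes. This overlap was not counted over all genes either. The members' median log2 difference was 0.08 in the microsystem and -0.01 in Petri dishes, against -0.01 and 0.01 over all genes. At 1.5-fold or more, 5 members passed in the microsystem and 2 in Petri dishes, against 2.35% and 2.97% of all genes, and the groups did not overlap for 12 and 14 members, against 27.6% and 34.5% of all genes. The members and lists were chosen with earlier results of these data known, so these counts are descriptions. Without microsystem treated replicate 2 or microsystem control replicate 2 the count in the microsystem fell to 5 members, and the share of all genes to 3.49% and 4.58%. In Petri dishes it fell to 3 members without Petri treated replicate 2, Petri treated replicate 3 or Petri control replicate 2, and the share of all genes to 5.31%, 5.53% and 5.84%. Same-numbered Petri arrays deviated together from their group means (r = 0.48, 0.19 and 0.31 across genes), and with the replicate number as a block within each culture HSPG2 and LAMC1 passed as well in Petri dishes (adjusted p = 0.0325 and 0.0239).

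**Figure D2:**
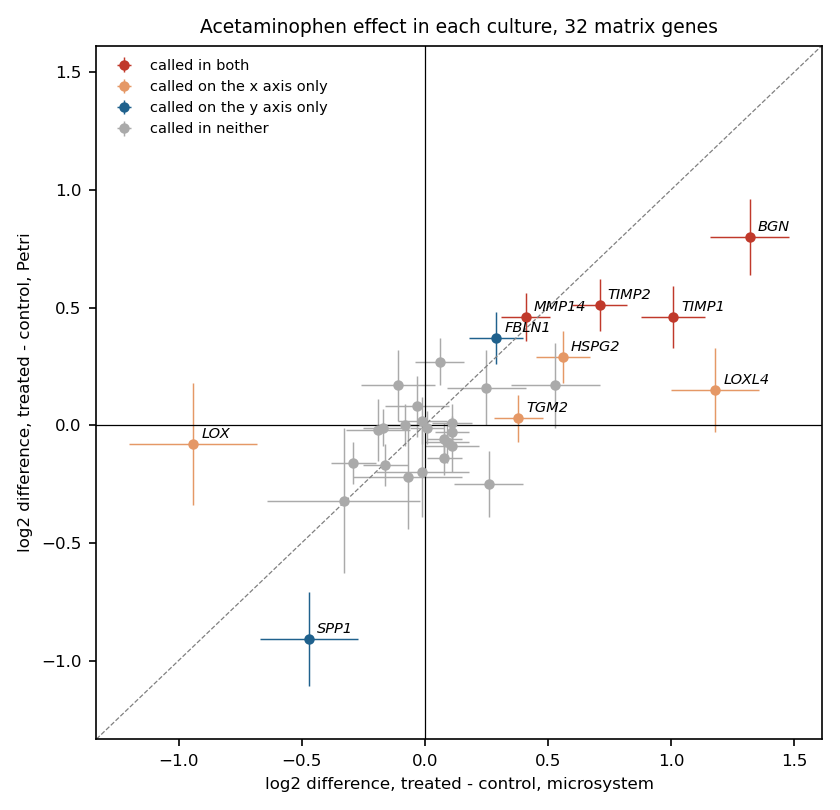
Log2 difference, treated minus control, of the 32 tested matrix genes in the microsystem (x axis) and in Petri dishes (y axis), with standard errors of the fit and the line of equality dashed. BGN, TIMP1, TIMP2 and MMP14 passed the test in both cultures, LOXL4 (1.18 and 0.15) and LOX (-0.94 and -0.08) passed in the microsystem, and SPP1 (-0.47 and -0.91) and FBLN1 (0.29 and 0.37) in Petri dishes.

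Whether acetaminophen acted differently in the 2 cultures was tested as a difference of the treatment effects, microsystem minus Petri. By limma 0 of 32 members passed, against 0.0303% of all genes (4 of 13199, of which 0.00758% of genes higher and 0.0227% lower). At an unadjusted p under 0.05 the difference held for 6 members, or 18.8%, against 7.35% of all genes. They were LOXL4 (1.03 ± 0.25 SE, adjusted p = 0.285), LOX (-0.86 ± 0.36, adjusted p = 0.64), TIMP1 (0.55 ± 0.18, adjusted p = 0.474), BGN (0.52 ± 0.23, adjusted p = 0.655), LOXL3 (0.51 ± 0.20, adjusted p = 0.597) and TGM2 (0.34 ± 0.14, adjusted p = 0.635). Of these 6, 4 encode crosslinking enzymes, which make up 6 of the 32 tested members. The 4 did not share a direction, since the difference was negative for LOX and positive for LOXL3, LOXL4 and TGM2. Without both microsystem arrays numbered 3, which is a choice made after the values were seen, LOX alone passed, at -1.01 with an adjusted p = 0.0444 (limma).

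The crosslinking enzymes held the largest falls among the members in the microsystem. LOX (probe set 8113709) encodes lysyl oxidase, the secreted copper enzyme that starts collagen and elastin crosslinks. Its log2 intensity was 8.13, 8.21 and 9.30 in microsystem treated arrays and 9.09, 9.42 and 9.93 in microsystem control arrays. It was 10.97, 11.14 and 11.20 in Petri treated arrays and 11.10, 11.19 and 11.26 in Petri control arrays. Every microsystem array was thus lower than every Petri array, and within the microsystem the treated array numbered 3 lay inside the range of the controls, while the values of the Petri groups overlapped. LOX was 5.9-fold lower in the microsystem than in Petri dishes in treated cells (log2 difference -2.56 ± 0.26, adjusted p = 6.22e-06) and 3.25-fold lower in control cells (-1.70 ± 0.26, adjusted p = 0.000146). Without both microsystem arrays numbered 3 these differences were -2.94 and -1.93. With acetaminophen LOX fell 1.91-fold in the microsystem (-0.94 ± 0.26, adjusted p = 0.0385). That call was lost when any one of 8 arrays was left out (adjusted p from 0.0516 to 0.155): microsystem treated 1 and 2, microsystem control 2 and 3, Petri treated 2 and 3, and Petri control 2 and 3. It was -1.09 with an adjusted p = 0.00101 without both arrays numbered 3. In Petri dishes the treatment difference of LOX was -0.08 ± 0.26 (adjusted p = 0.875).

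LOXL3 (probe set 8053231), a relative of LOX with scavenger receptor domains, was at 5.77, 5.94 and 6.21 in microsystem treated arrays and 5.73, 5.56 and 5.86 in microsystem control arrays. In Petri dishes its log2 intensity was 7.79, 8.01 and 7.91 in treated and 7.89, 8.16 and 8.42 in control arrays. The cultures did not overlap, whereas treated and control arrays did in both cultures. The gene was 3.81-fold lower in the microsystem in treated cells (-1.93 ± 0.14, adjusted p = 4.94e-07) and 5.43-fold lower in control cells (-2.44 ± 0.14, adjusted p = 9.65e-08). Its treatment differences, 0.26 ± 0.14 in the microsystem and -0.25 ± 0.14 in Petri dishes, did not pass (adjusted p = 0.259 and 0.268).

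LOXL4 (probe set 7935553), another member of this subfamily, moved with treatment. Its log2 intensity was 8.06, 8.72 and 8.41 in microsystem treated arrays, against 7.28, 6.78 and 7.61 in microsystem control arrays. In Petri dishes it was 8.31, 8.29 and 8.35 in treated and 8.22, 8.13 and 8.14 in control arrays. The microsystem control arrays were thus the lowest of all 12, and microsystem treated arrays lay around the Petri values. LOXL4 rose 2.26-fold with acetaminophen in the microsystem (1.18 ± 0.18, adjusted p = 0.00207). It differed by 0.15 ± 0.18 in Petri dishes (adjusted p = 0.629), where the groups did not overlap either. Between cultures it was 1.92-fold lower in the microsystem in control cells (-0.94 ± 0.18, adjusted p = 0.000877) and differed by 0.08 ± 0.18 in treated cells (adjusted p = 0.746).

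TGM2, the tissue transglutaminase that joins glutamine to lysine side chains, was at 8.14, 8.14 and 8.36 in microsystem treated arrays and at 7.67, 7.83 and 8 in microsystem control arrays. Petri arrays held 8.42 to 8.46 in treated and 8.32 to 8.56 in control cells, above every microsystem control array. TGM2 rose with treatment in the microsystem by 0.38 ± 0.10 (adjusted p = 0.0357), and in control cells it was 1.48-fold lower in the microsystem than in Petri dishes (-0.57 ± 0.10, adjusted p = 0.000497). The rise did not pass when any one of 7 arrays was left out (adjusted p from 0.0511 to 0.107), that is any microsystem array but control 3, or Petri treated 2 or 3, nor without both microsystem arrays numbered 3 (0.39, adjusted p = 0.0534). In treated cells the culture difference of TGM2, -0.22 ± 0.10 (adjusted p = 0.0925), passed without microsystem treated replicate 3 (-0.30, adjusted p = 0.0443) and when both microsystem arrays numbered 3 were left out (-0.30, adjusted p = 0.0253). LOXL1 and LOXL2 passed in none of the comparisons. LOXL1, which acts on elastic fibres, stayed between 6.41 and 6.75 in all arrays. LOXL2, which crosslinks collagen IV, stood at 6.68, 6.83 and 6.79 in microsystem treated and 6.76, 5.90 and 6.06 in microsystem control arrays, a difference of 0.53 ± 0.18 (adjusted p = 0.0788) that passed without microsystem control replicate 1 (0.79, adjusted p = 0.00206) and with array weights (0.63, adjusted p = 0.0321). Without that array LOXL2 was also lower in the microsystem in control cells (-0.54, adjusted p = 0.00256), against -0.28 ± 0.18 with all arrays (adjusted p = 0.215). Over the 6 enzymes, 0 rose and 4 fell in the microsystem in control cells, and 0 rose and 2 fell in treated cells. With treatment 2 rose and 1 fell in the microsystem, and 0 changed in Petri dishes. The shares of all genes that passed in these comparisons, in the same order, were 44.9%, 41.4%, 9.06% and 10.4%.

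**Figure D3:**
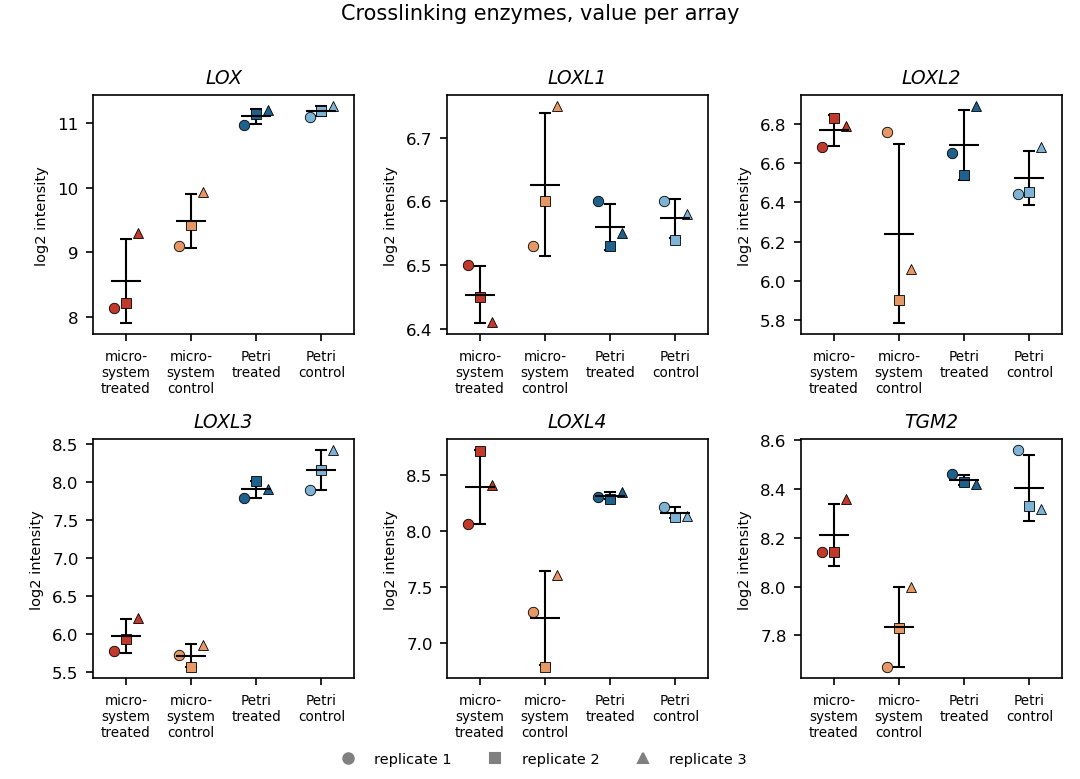
Log2 intensity of the 6 crosslinking enzyme genes in each array, with group mean and SD (n = 3). Symbols mark the replicate number, which was taken to pair the Petri arrays alone. Each panel has its own y axis. LOX and LOXL3 lie lower in every microsystem array than in any Petri array, and LOXL4 is lowest in the 3 microsystem control arrays.

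Promoter sequences from RefSeq (GRCh38.p14) are shown for the crosslinking genes with the largest differences, in each case the 250 bases before the gene's farthest upstream start, so that LOX and LOXL3, which fell together, can be set side by side and beside LOXL4. RefSeq windows were matched for 34 of the 43 members, with 45 windows in all. Letter runs searched on both strands were the hypoxia response core ACGTG or GCGTG (of which ACGTG also lies within the E-box CACGTG), the GC box GGGCGG, the TEAD motif GGAATG, the AP-1 motif TGANTCA and the TATA box TATAAA. Capitals mark the matches. The LOX window is chr5:122078260-122078509, the LOXL3 window chr2:74553943-74554192 and the LOXL4 window chr10:98268195-98268444, all on the minus strand and printed 5′ to 3′.
LOX: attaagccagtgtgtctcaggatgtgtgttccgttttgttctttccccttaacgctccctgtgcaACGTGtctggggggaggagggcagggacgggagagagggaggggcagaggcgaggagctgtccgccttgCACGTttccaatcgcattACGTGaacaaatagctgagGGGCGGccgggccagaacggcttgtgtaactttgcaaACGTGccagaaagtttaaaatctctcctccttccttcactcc
LOXL3: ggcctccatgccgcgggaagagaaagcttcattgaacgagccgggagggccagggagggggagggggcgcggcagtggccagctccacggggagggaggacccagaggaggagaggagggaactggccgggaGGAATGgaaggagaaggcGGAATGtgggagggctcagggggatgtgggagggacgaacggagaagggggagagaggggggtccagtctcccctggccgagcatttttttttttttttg
LOXL4: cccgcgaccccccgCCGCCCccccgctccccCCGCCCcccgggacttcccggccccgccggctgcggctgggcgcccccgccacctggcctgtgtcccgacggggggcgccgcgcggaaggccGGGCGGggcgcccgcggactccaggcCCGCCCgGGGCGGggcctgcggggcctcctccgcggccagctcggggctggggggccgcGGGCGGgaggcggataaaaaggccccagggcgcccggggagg
The LOX window held the hypoxia core at 185, 116, 98 and 42 bases before the start and a GC box at 79. The LOXL3 window held the TEAD motif at 118 and 100 bases before the start and no other of these runs. The LOXL4 window held 6 GC boxes. The other 2 LOX windows, at starts farther downstream, overlap each other and held the hypoxia core at the same 2 places. The other LOXL3 window held the hypoxia core once beside 2 GC boxes. In the members' shares that follow, overlapping windows of a gene were counted separately. Of all 35116 RefSeq windows of this length, 43.2% held the hypoxia core, 42.6% the GC box, 11.9% the TEAD motif, 6.57% the AP-1 motif and 10.7% the TATA box, and of the members' windows 31.1%, 73.3%, 6.67%, 6.67% and 4.44% did. Among windows of protein-coding genes the shares were 49.3% for the hypoxia core, 53.7% for the GC box, 10.5% for the TEAD motif, 5.36% for the AP-1 motif and 9% for the TATA box. A match describes letters in a window and does not show that a factor binds there.

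Of 9 tested basement membrane genes, 6 fell in the microsystem in treated cells and 4 in control cells, against 18.9% and 18.3% of all genes. The largest falls were in HSPG2 and AGRN, while LAMA5, LAMB2 and COL4A2 passed in neither. HSPG2 (probe set 7913450) encodes perlecan, the large heparan sulfate proteoglycan of basement membranes. Its log2 intensity was 8.56, 8.63 and 8.78 in microsystem treated, 8.10, 7.90 and 8.29 in microsystem control, 9.64, 9.41 and 9.48 in Petri treated and 9.31, 9.18 and 9.16 in Petri control arrays. None of these groups overlapped another. Perlecan was 1.8-fold lower in the microsystem in treated cells (-0.85 ± 0.11, adjusted p = 3.47e-05) and 2.17-fold lower in control cells (-1.12 ± 0.11, adjusted p = 3.3e-06). With acetaminophen it rose 1.47-fold in the microsystem (0.56 ± 0.11, adjusted p = 0.00678), while the difference of 0.29 ± 0.11 in Petri dishes missed the threshold (adjusted p = 0.0994). With the replicate number as a block within each culture, that difference passed (limma, adjusted p = 0.0325).

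AGRN (probe set 7896822), the gene of agrin, was at 9.20, 9.16 and 9.07 in microsystem treated arrays, against 9.96, 9.72 and 9.77 in Petri treated arrays. Controls held 9.27, 9.15 and 9.04 in the microsystem, against 10, 9.67 and 9.71 in Petri dishes. All 6 microsystem arrays lay below all 6 Petri arrays, whatever the treatment. Agrin was 1.59-fold lower in treated cells (-0.67 ± 0.10, adjusted p = 0.000197) and 1.56-fold lower in control cells (-0.64 ± 0.10, adjusted p = 0.000243). It differed with treatment by -0.01 ± 0.10 in the microsystem and 0.02 ± 0.10 in Petri dishes (adjusted p = 0.976 and 0.909).

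NID1 (probe set 7925320) encodes nidogen 1, which links laminin to collagen IV. It was at 8.98, 8.99 and 8.61 in microsystem treated arrays, against 9.65, 9.42 and 9.42 in Petri treated arrays, 1.55-fold lower (-0.63 ± 0.15, adjusted p = 0.00394). Controls held 8.89, 9.24 and 8.77 in the microsystem and 9.60, 9.19 and 9.18 in Petri dishes. There the groups overlapped, and the difference of -0.36 ± 0.15 did not pass (adjusted p = 0.0665), though it did without microsystem control replicate 2 (-0.49, adjusted p = 0.0223) or microsystem treated replicate 3 (-0.36, adjusted p = 0.0482).

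Among laminins, which form the cross-shaped trimers of the basement membrane from alpha, beta and gamma chains, the tested chains were LAMA5, LAMB1, LAMB2 and LAMC1. LAMB1, the beta 1 chain, was lower in the microsystem in treated cells (9.62, 9.72 and 9.89, against 10.20, 10.12 and 10.17 in Petri dishes) by 0.42 ± 0.09 (adjusted p = 0.00161). It was also lower in control cells (9.54, 9.64 and 9.77, against 10.25, 10.21 and 10.24), 1.5-fold (-0.58 ± 0.09, adjusted p = 0.000116). LAMC1, the gamma 1 chain of most laminins, fell in treated cells (-0.33 ± 0.10, adjusted p = 0.014), a call lost without Petri treated replicate 1 (-0.27, adjusted p = 0.0582), and differed by -0.11 ± 0.10 in control cells (adjusted p = 0.356). LAMA5 and LAMB2 did not pass in either culture contrast, with differences between -0.09 and 0.07. Of the 4 laminins, 0 passed for treatment in either culture in the fit without a block, although LAMC1 passed in Petri dishes without Petri control replicate 1 (0.36, adjusted p = 0.0373). LAMC1 also passed there with the replicate number as a block within each culture (0.27, limma, adjusted p = 0.0239).

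Of the basement membrane collagens, COL18A1, the proteoglycan that yields endostatin, fell in the microsystem by 0.35 ± 0.07 in treated cells (adjusted p = 0.00181) and by 0.57 ± 0.07 in control cells (adjusted p = 4.02e-05). Its values were 8.12, 8.11 and 8.20 in microsystem treated arrays, against 8.41, 8.53 and 8.55 in Petri treated arrays. Control arrays held 8.05, 8.01 and 8.14 in the microsystem, against 8.62, 8.64 and 8.65 in Petri dishes, again without overlap. COL4A2, a chain of collagen IV, differed by -0.04 ± 0.07 and -0.18 ± 0.07 (adjusted p = 0.705 and 0.0536), and its partner COL4A1 was under the filter in every array.

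The fibril collagens behaved differently from each other. COL27A1 (probe set 8157383), a collagen best known from cartilage, was at 9.06, 9.31 and 8.50 in microsystem treated arrays, against 7.68, 7.85 and 7.77 in Petri treated arrays. In control cells it was at 9.29, 9.04 and 8.55 in the microsystem, against 8.08, 7.92 and 7.90 in Petri dishes. The arrays numbered 3 were the lowest of the microsystem in both groups and still above all Petri arrays. The gene was 2.27-fold higher in the microsystem in treated cells (1.18 ± 0.19, adjusted p = 0.000277) and 1.99-fold higher in control cells (0.99 ± 0.19, adjusted p = 0.000928), and without both arrays numbered 3 the differences were 1.41 and 1.19. COL1A1, the main chain of collagen I, stayed between 5.96 and 6.49 in all arrays, and COL5A1, which limits fibril width, between 5.06 and 5.47. Neither passed in any comparison. SERPINH1, the endoplasmic reticulum chaperone of collagens, was 7.98, 7.95 and 8.03 in microsystem treated arrays, against 8.47, 8.63 and 8.58 in Petri treated arrays (-0.57 ± 0.09, adjusted p = 0.000175). In control cells it was 8.16, 8.21 and 8.45, against 8.78, 8.67 and 8.70 (-0.44 ± 0.09, adjusted p = 0.00101). Its treatment difference of -0.29 ± 0.09 in the microsystem missed the threshold (adjusted p = 0.0562) and passed under 5 other settings at an adjusted p from 0.0348, without microsystem control replicate 1, to 0.0499, with array weights.

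SPP1 (probe set 8096301) encodes osteopontin, a secreted phosphoprotein that binds integrins. It had the largest difference of all members: its log2 intensity was 12, 12.03 and 11.59 in microsystem treated arrays, against 9.45, 8.76 and 8.71 in Petri treated arrays. Control arrays held 12.42, 12.41 and 12.20 in the microsystem, against 10.30, 9.68 and 9.68 in Petri dishes. The cultures were far apart and did not overlap, and in each culture all treated arrays lay below all control arrays. Osteopontin was 7.47-fold higher in the microsystem in treated cells (2.90 ± 0.20, adjusted p = 4.12e-07) and 5.5-fold higher in control cells (2.46 ± 0.20, adjusted p = 1.31e-06). With acetaminophen it fell 1.88-fold in Petri dishes (-0.91 ± 0.20, adjusted p = 0.0122), which was lost without Petri treated replicate 2 or 3 (-0.81 and -0.78, adjusted p = 0.0625 and 0.0618). In the microsystem its difference of -0.47 ± 0.20 did not pass (adjusted p = 0.165).

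BGN (probe set 8170648) encodes biglycan, a small proteoglycan that binds collagen and transforming growth factor beta. It was at 7.40, 7.86 and 7.25 in microsystem treated arrays, against 6.15, 5.90 and 6.52 in microsystem control arrays. In Petri dishes it was at 7.64, 7.42 and 7.52 in treated arrays, against 6.76, 6.66 and 6.76 in control arrays. In both cultures treated and control arrays did not overlap. Biglycan rose 2.49-fold in the microsystem (1.32 ± 0.16, adjusted p = 0.000473) and 1.74-fold in Petri dishes (0.80 ± 0.16, adjusted p = 0.00638). Between cultures it differed by -0.02 ± 0.16 in treated cells (adjusted p = 0.934) and was 1.45-fold lower in the microsystem in control cells (-0.54 ± 0.16, adjusted p = 0.014), which was lost without microsystem control replicate 2 (-0.39, adjusted p = 0.0737).

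The promoter windows of SPP1, which moved most between cultures, and BGN, which moved most with treatment in the microsystem, are given for comparison. They lie at chr4:87975464-87975713 and chrX:153494730-153494979 (GRCh38.p14, plus strand), with capitals as above.
SPP1: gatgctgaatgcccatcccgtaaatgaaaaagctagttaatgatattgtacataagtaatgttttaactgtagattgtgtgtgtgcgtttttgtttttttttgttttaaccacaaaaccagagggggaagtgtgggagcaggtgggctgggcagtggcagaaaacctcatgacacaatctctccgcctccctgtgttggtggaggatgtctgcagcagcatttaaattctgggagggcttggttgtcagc
BGN: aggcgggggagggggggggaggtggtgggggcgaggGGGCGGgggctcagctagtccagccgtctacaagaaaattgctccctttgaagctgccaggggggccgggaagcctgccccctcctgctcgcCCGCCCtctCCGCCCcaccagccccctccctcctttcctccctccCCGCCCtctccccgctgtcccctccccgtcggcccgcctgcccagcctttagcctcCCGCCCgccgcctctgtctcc
The SPP1 window held none of the 5 motifs in these letters, and the BGN window held 5 GC boxes.

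The remaining glycoproteins mostly did not pass the test. FN1, fibronectin, the cell-binding protein that hepatocytes also release into plasma, stayed between 12.76 and 13.13 in all arrays and passed in no comparison. SPARC, a collagen-binding protein, ranged from 8.42 to 9.48 and did not pass. FBLN1, fibulin 1 of elastic fibres and basement membranes, was at 9.59, 9.60 and 9.71 in Petri treated arrays, against 9.15, 9.28 and 9.36 in Petri control arrays, and rose by 0.37 ± 0.11 (adjusted p = 0.0489). That call was lost when any one of 8 arrays was left out (adjusted p from 0.0572 to 0.16), namely all 6 Petri arrays and both microsystem arrays numbered 2, and after quantile normalization (0.34, adjusted p = 0.0739). Between cultures in treated cells FBLN1 differed by -0.23 ± 0.11 (adjusted p = 0.115), and by -0.32 without microsystem treated replicate 1 (adjusted p = 0.0439). LTBP3, which holds latent transforming growth factor beta, fell by 0.20 ± 0.07 in the microsystem in control cells (adjusted p = 0.041) and this did not pass when any one of 8 arrays was left out (adjusted p from 0.0502 to 0.149), that is any array but microsystem treated 1 and 3, Petri treated 1 and Petri control 2, or when both microsystem arrays numbered 3 were (-0.18, adjusted p = 0.117).

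Of the 3 tested protease inhibitors among the members, TIMP1 and TIMP2 rose with acetaminophen in both cultures and TIMP3 passed in neither. TIMP4, from the wider list described below, rose by 0.49 ± 0.11 in the microsystem (limma, adjusted p = 0.0139). In Petri dishes its treated arrays lay below all control arrays, and the difference of -0.29 ± 0.11 did not pass (limma, adjusted p = 0.0959). By the test of the difference of treatment effects, 0 of the 86 tested genes of that list passed, so TIMP4 did not. TIMP1 (probe set 8167185) was at 11.64, 11.73 and 12.13 in microsystem treated arrays, against 10.97, 10.61 and 10.90 in microsystem control arrays. In Petri dishes it was at 11.18, 11.29 and 11.42 in treated arrays, against 10.80, 10.80 and 10.91 in control arrays. Treated arrays were higher in both cultures, and control arrays of the cultures overlapped. TIMP1 rose 2.01-fold in the microsystem (1.01 ± 0.13, adjusted p = 0.000668) and 1.38-fold in Petri dishes (0.46 ± 0.13, adjusted p = 0.0364). The rise in Petri dishes did not pass when any one of 5 Petri arrays was left out, treated 2 and 3 and control 1, 2 and 3 (adjusted p from 0.0695 to 0.14). In treated cells TIMP1 was 1.45-fold higher in the microsystem than in Petri dishes (0.53 ± 0.13, adjusted p = 0.00459), and in control cells it differed by -0.01 ± 0.13 (adjusted p = 0.948). The 250 bases before its start, at chrX:47582186-47582435 (GRCh38.p14, plus strand), are shown because it rose in both cultures.
TIMP1: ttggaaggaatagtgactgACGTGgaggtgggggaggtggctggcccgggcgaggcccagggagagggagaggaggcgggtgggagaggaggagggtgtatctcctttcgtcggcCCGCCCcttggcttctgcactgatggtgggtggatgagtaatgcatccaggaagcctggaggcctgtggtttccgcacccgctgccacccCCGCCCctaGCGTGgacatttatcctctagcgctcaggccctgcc
They held the hypoxia core at 231 and 36 bases and the GC box at 135 and 45 bases before the start.

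TIMP2 (probe set 8018966), which also takes part in activating MMP2 on the cell surface, was at 8.70, 8.74 and 8.95 in microsystem treated arrays, against 8.30, 7.88 and 8.09 in microsystem control arrays. In Petri dishes it was at 9.27, 9.19 and 9.27 in treated arrays, against 8.82, 8.61 and 8.75 in control arrays. Treated arrays lay above control arrays in both cultures without overlap. It rose 1.63-fold in the microsystem (0.71 ± 0.11, adjusted p = 0.00203) and 1.43-fold in Petri dishes (0.51 ± 0.11, adjusted p = 0.00848). Unlike TIMP1 in treated cells, TIMP2 was lower in the microsystem than in Petri dishes, 1.36-fold in treated cells (-0.44 ± 0.11, adjusted p = 0.00465) and 1.56-fold in control cells (-0.64 ± 0.11, adjusted p = 0.000329). TIMP3, the inhibitor that binds to the matrix, did not pass in any comparison, with differences between -0.33 and -0.31 and an SE of 0.31 in the treatment and culture contrasts. It ranged from 7.61 to 9.24, and in each microsystem group the array numbered 3 was the lowest (7.61 in treated and 7.99 in control cells). A second probe set of TIMP3 gave -0.33 and -0.27 for treatment in the microsystem and in Petri dishes, and -0.09 and -0.03 for culture in treated and control cells.

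Among the proteases, MMP14, the membrane metalloprotease that cuts collagen and activates MMP2, rose with treatment by 0.41 ± 0.10 in the microsystem (6.71, 6.71 and 6.90, against 6.37, 6.25 and 6.47 in controls, adjusted p = 0.0215). In Petri dishes it rose by 0.46 ± 0.10 (7.12, 6.97 and 7.12, against 6.77, 6.45 and 6.62 in controls, adjusted p = 0.0104). Treated and control arrays did not overlap in either culture. The rise in the microsystem did not pass without microsystem treated replicate 2 (adjusted p = 0.0526), microsystem treated replicate 3 (0.0702), microsystem control replicate 2 (0.0878) or both arrays numbered 3 (0.0643), and that in Petri dishes without Petri control replicate 2 (0.056). In treated cells MMP14 fell in the microsystem relative to Petri dishes by 0.29 ± 0.10 (adjusted p = 0.0295), and this call was lost without microsystem treated 1 or 2 or Petri treated 1 or 3 (adjusted p from 0.0835 to 0.0974). Its difference in control cells, -0.25 ± 0.10 (adjusted p = 0.0561), passed without microsystem treated replicate 3, microsystem control replicate 3 or Petri control replicate 2 (adjusted p = 0.0496, 0.0393 and 0.0257), and with both microsystem arrays numbered 3 left out (-0.30, adjusted p = 0.032). MMP11 (probe set 8071758), stromelysin 3, which is activated inside the cell, was 5.96, 5.41 and 5.85 in microsystem treated arrays, against 6.88, 6.75 and 6.76 in Petri treated arrays, 2.08-fold lower (-1.06 ± 0.13, adjusted p = 2.69e-05). In control cells it was 5.93, 5.78 and 6.08 in the microsystem, against 6.71, 6.84 and 6.90 in Petri dishes, 1.85-fold lower (-0.89 ± 0.13, adjusted p = 9.45e-05). All microsystem arrays lay below all Petri arrays for MMP11. MMP15, another membrane-bound member, fell in the microsystem by 0.50 ± 0.13 in treated cells (adjusted p = 0.00758). In control cells it fell by 0.39 ± 0.13 (adjusted p = 0.0266), which was lost without microsystem control replicate 3 (-0.33, adjusted p = 0.0849), Petri control replicate 1 (-0.25, adjusted p = 0.121) or both microsystem arrays numbered 3 (-0.33, adjusted p = 0.0747). ADAM9, a membrane protease that sheds surface proteins, stayed between 10.81 and 10.97 in all arrays.

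**Figure D4:**
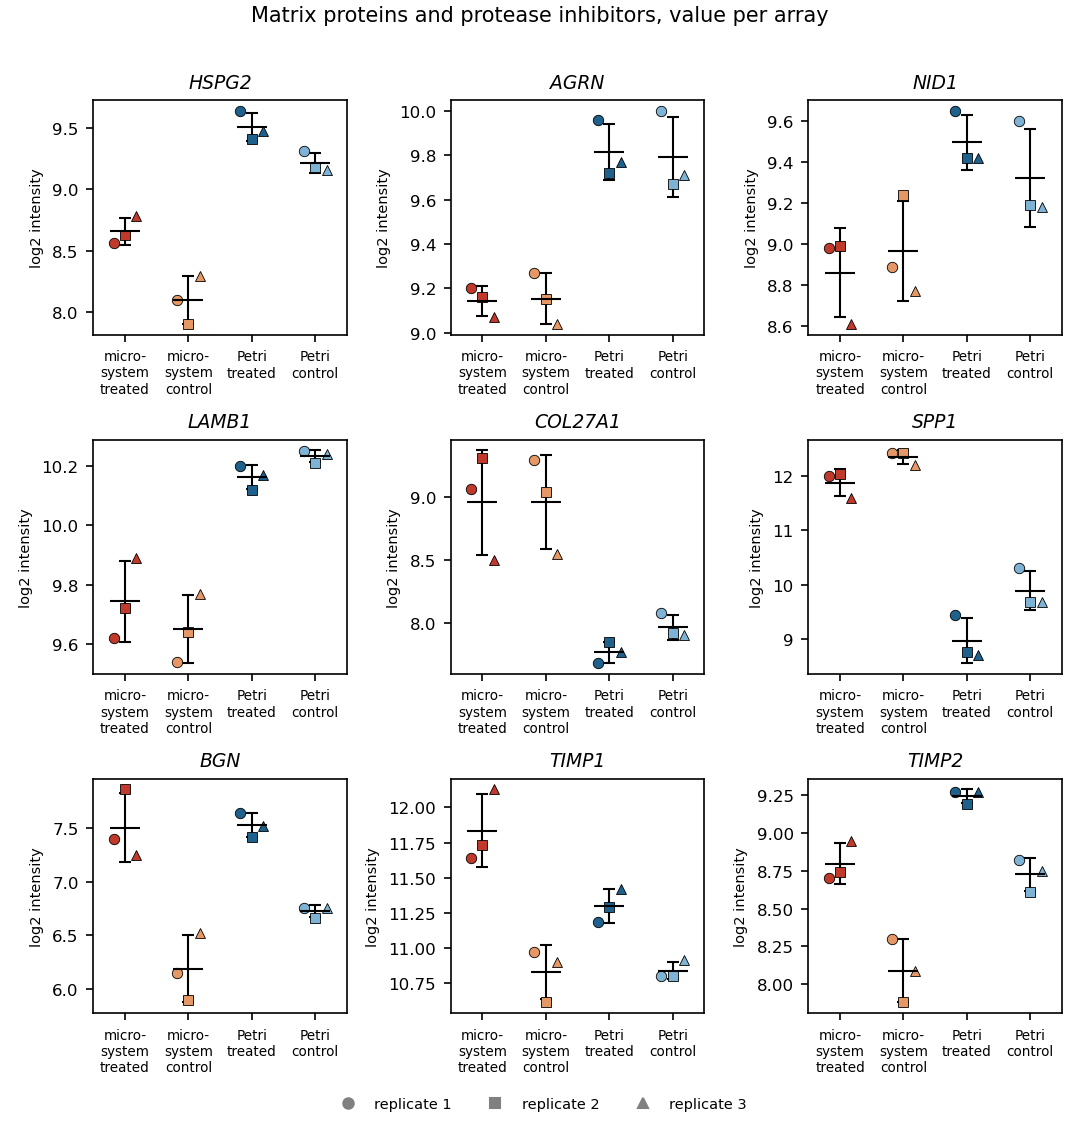
Log2 intensity of 9 matrix and inhibitor genes in each array, with group mean and SD (n = 3). Symbols mark the replicate number, which was taken to pair the Petri arrays alone. Each panel has its own y axis. SPP1 and COL27A1 lie higher and HSPG2 and AGRN lower in every microsystem array than in any Petri array, while BGN, TIMP1 and TIMP2 lie higher in treated than in control arrays of either culture.

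**Figure D5:**
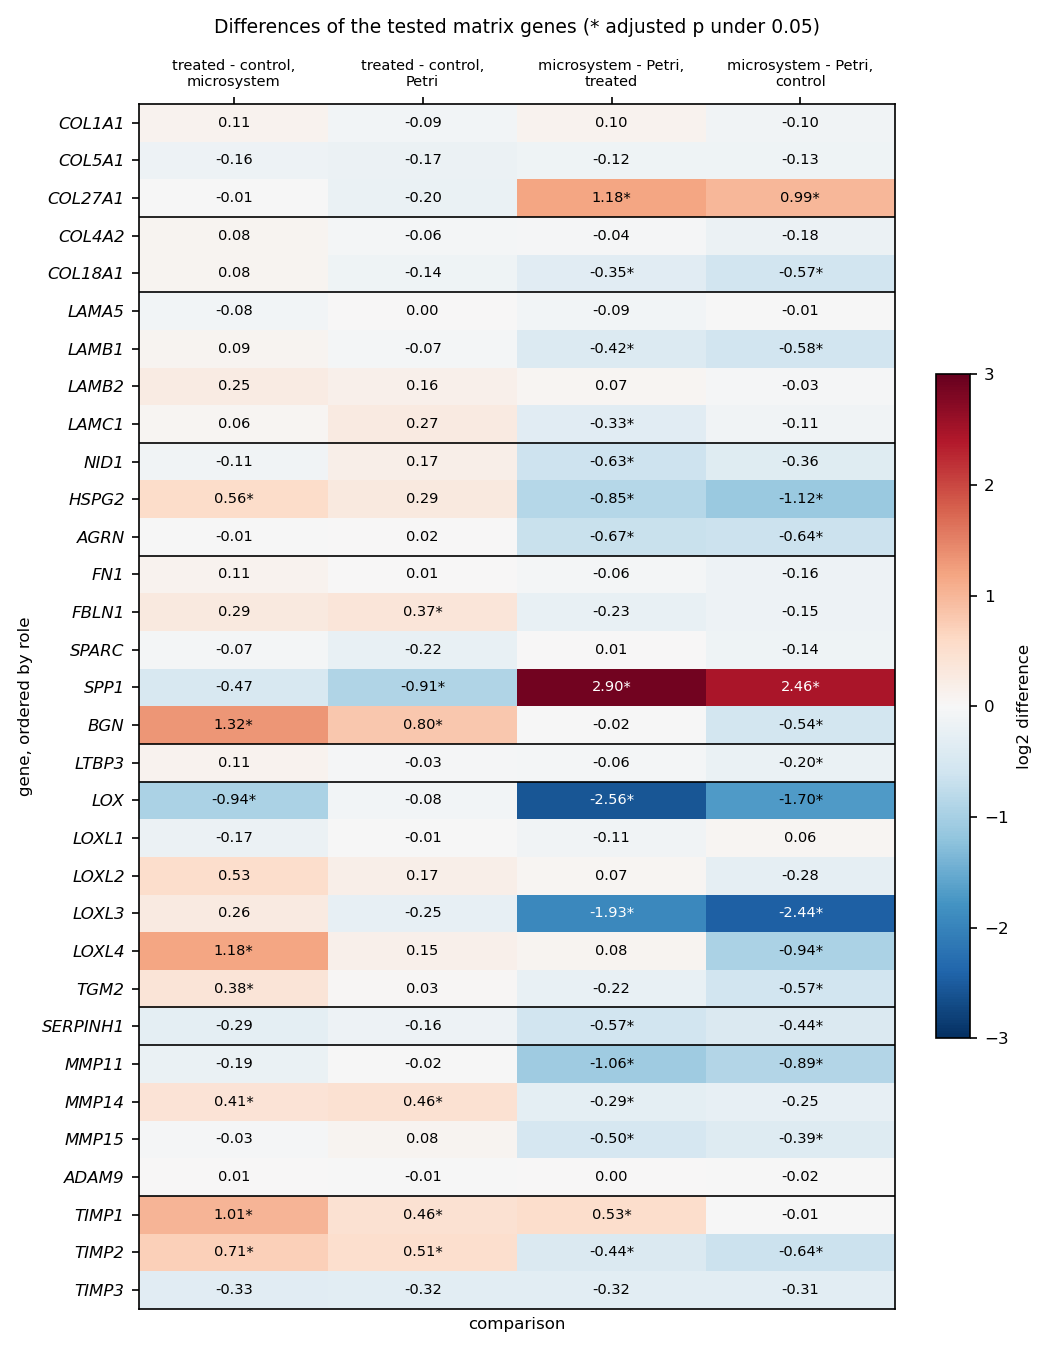
Log2 differences of the 32 tested matrix genes (rows, ordered by role, with lines between roles) in the treatment contrasts and the culture contrasts (columns), where an asterisk marks an adjusted p under 0.05. Both culture columns hold 16 asterisks each, of which 13 and 14 are falls in the microsystem, and the treatment columns hold 8 and 6.

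A wider list of 143 other matrix genes, of which 86 were tested, gave the setting. In the microsystem 12 rose and 25 fell relative to Petri dishes in treated cells (43%, against 41.4% of all genes) and 9 rose and 27 fell in control cells (41.9%, against 44.9%), so the share that passed was near that of all genes. Of all genes, 22.6% rose and 18.9% fell in treated cells, and 26.5% rose and 18.3% fell in control cells. Collagen modification was mixed, with 2 of 18 genes that rose and 5 that fell in treated cells. In control cells 4 rose and 5 fell. P4HA1, a catalytic subunit of prolyl 4-hydroxylase, fell by 1.44 ± 0.09 in treated and 1.25 ± 0.09 in control cells (adjusted p = 2.37e-07 and 6.24e-07), and FKBP10, a collagen chaperone, by 0.77 ± 0.07 and 0.74 ± 0.07. The lysyl hydroxylase gene PLOD1 fell by 0.46 ± 0.07 in treated and 0.64 ± 0.07 in control cells. By contrast P3H1, a prolyl 3-hydroxylase, rose by 0.57 ± 0.10 and 0.63 ± 0.10. Among receptors, the collagen receptor kinase DDR1 fell by 0.81 ± 0.12 in treated and 1.16 ± 0.12 in control cells, and BCAM, a laminin receptor, by 0.93 ± 0.13 and 0.70 ± 0.13. Versican (VCAN) and the matricellular CCN2 were lower too, by log2 differences of -1.10 ± 0.40 and -1.23 ± 0.22 in treated and -1.82 ± 0.40 and -1.67 ± 0.22 in control cells. Vitronectin (VTN), a plasma protein that cells adhere to, differed by -1.17 ± 0.11 in treated and -1.22 ± 0.11 in control cells. The protease genes CTSL (cathepsin L) and PLAU (urokinase) rose by 1.11 ± 0.10 and 1.09 ± 0.33 in treated and by 0.75 ± 0.10 and 1.11 ± 0.33 in control cells. In the same sublist of 22 proteases and inhibitors, 7 genes rose and 3 fell in treated cells, and 5 rose and 5 fell in control cells. CTSS (cathepsin S) differed by -0.65 ± 0.11 in treated and -0.76 ± 0.11 in control cells, and SERPINE2, a serine protease inhibitor, by -1.36 ± 0.43 in control cells. Beside these falls, the macrophage marker list had a lower summed log2 level in the microsystem, 8.47 to 8.67 against 9.49 to 9.73 in Petri dishes in treated cells and 8.55 to 8.57 against 9.35 to 9.53 in control cells. Of the list's 6 genes, 2 were tested. CD68, a lysosomal protein that other cells make too, fell in the microsystem (-1.21 ± 0.09 in treated and -1.05 ± 0.09 in control cells). The other, MARCO, did not pass (-0.06 ± 0.10 and -0.10 ± 0.10). PTPRC and CD163 lay under the 40th percentile in every array.

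With acetaminophen 14 of the 86 rose and 2 fell in the microsystem (18.6%, against 9.06% of all genes), and 7 rose and 1 fell in Petri dishes (9.3%, against 10.4%). Matrix receptors, 12 of the 86, made up 4 of the 14 rises: ITGA3 (0.84 ± 0.19), ITGA2 (0.81 ± 0.21), DDR1 (0.63 ± 0.12) and ITGAV (0.57 ± 0.10). Of the 22 other proteases and inhibitors, 5 rose and 1 fell, while 6.39% of all genes rose and 2.67% fell. The rises included TIMP4 (0.49 ± 0.11), ADAMTS4 (0.44 ± 0.10), CTSB (0.44 ± 0.09) and CTSL (0.43 ± 0.10). The integrin-binding protein gene TGFBI rose by 0.87 ± 0.14 and LTBP2 by 0.76 ± 0.16. In Petri dishes ITGA3 rose by 0.76 ± 0.19, ITGB4 by 0.57 ± 0.14 and the syndecan gene SDC1 by 0.44 ± 0.08. COL7A1, the anchoring fibril collagen, rose in both cultures (0.57 ± 0.10 in the microsystem and 0.47 ± 0.10 in Petri dishes). The same held for P4HA2 (0.47 ± 0.09 and 0.37 ± 0.09) and BMP1 (0.42 ± 0.09 and 0.36 ± 0.09), which trims procollagen. With the replicate number as a block within each culture, 9 of the 86 rose and 7 fell in Petri dishes, or 16 in place of 8, while the share of all genes that passed was 16.5% in place of 10.4%. In the microsystem 6 passed without both arrays numbered 3, against 5.13% of all genes.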

How the data were processed

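RNA of 12 samples was measured on Affymetrix arrays. The authors deposited a log2 intensity for each probe set, and the submitters' processing notes name RMA and Affymetrix Expression Console; no version or genome build is stated there. The values were used as deposited. The number of arrays limits the precision, and with 3 arrays against 3 no exact permutation p could be under 0.1.

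Of 32321 probe sets, 19158 had 1 gene symbol in the array's annotation, 1388 several and 11775 none. A gene was tested if 3 or more arrays had it above their own 40th percentile, which left 13199. In limma 3.58.1 (R 4.3.3) a mean was fitted for each group over all 12 arrays, with 8 residual and 5.35 prior degrees of freedom, with the Benjamini-Hochberg adjustment over all tested genes. Each SE is that of the moderated fit. Alternatives changed the filter, scaling, weights, block, threshold and the arrays used.

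Members and lists were chosen with earlier results of these data known. Members that passed with at least 1.5-fold in a contrast are given by array, the rest by range or by values where a family is compared, and of the wider list, names were taken from the 4 genes per sublist and contrast with the largest difference among those that passed, not all of which are printed. For other members that passed, values by array were added after they were seen. Deviations of same-numbered arrays from their group means correlated across genes at r = 0.11, 0.071 and 0.6 for treatment in the microsystem, 0.48, 0.19 and 0.31 for treatment in Petri dishes, 0.14, -0.14 and 0.13 for culture in treated cells and 0.18, -0.034 and 0.13 for culture in controls. From these data, not from the labels, the numbers were taken to pair the Petri arrays alone. No threshold was set for this choice, and the highest r, 0.6, was in the microsystem. Unless a block is named, the calls in Petri dishes come from the fit without a block. Promoter windows came from RefSeq, and figures were drawn with matplotlib 3.10.9 (Python 3.11.15).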

Additional observations from a re-analysis of the deposited data

How the results depend on the processing

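Of 46 results of members that passed the test (a gene in a comparison), 34 kept an adjusted p under 0.05 under every alternative fit and 12 lost it under at least 1 (the added 1.5-fold threshold, below, is not counted here), 14 others passed under at least 1, and 0 of the called results changed sign. The 12 were LOX, TGM2 and MMP14 for treatment in the microsystem, FBLN1, SPP1, TIMP1 and MMP14 for treatment in Petri dishes, LAMC1 and MMP14 for culture in treated cells, and BGN, LTBP3 and MMP15 for culture in controls; the cause was not tested. With single arrays left out, members that passed numbered 5 to 9 for treatment in the microsystem, 3 to 6 for treatment in Petri dishes, 14 to 17 for culture in treated cells, 14 to 18 for culture in controls and 0 for the difference of treatment effects, and the wider list's counts were 7 to 18, 2 to 9, 29 to 37, 30 to 37 and 0. With the replicate number as a block over all arrays, 13 genes of the wider list passed for treatment in Petri dishes, against 12.9% of all genes, and 1 for the difference, and NID1 and MMP14 passed for culture in controls (adjusted p = 0.0288 and 0.0254). With the replicate number as a block within each culture, 13 members and 25 genes of the wider list passed for treatment in the microsystem, against 16% of all genes, although the numbers were not taken to pair those arrays, and 16 of the wider list in Petri dishes and 3 for the difference. The members gained in the microsystem were SPP1 (adjusted p = 0.00346, and 0.0403 with the block over all arrays), FBLN1, SERPINH1, LOXL2 and LAMB2 (from 0.0235 to 0.0441). With only the arrays compared, treatment in the microsystem gave 5 members and 7 of the wider list, against 3.38% of all genes, and array weights gave 23 of the wider list in Petri dishes, against 27.3% of all genes. Asking for at least 1.5-fold as well left 5, 2, 8 and 9 members and 5, 1, 18 and 20 of the wider list for treatment in the microsystem, treatment in Petri dishes, culture in treated cells and culture in controls, by its own construction. Without both microsystem arrays numbered 3, an alternative chosen after seeing the data, 6 of the wider list passed for treatment in the microsystem and 1 member, LOX, for the difference. Members under the filter lie at the dim end of the arrays, where a change could not be read.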
